A study of Rattus norvegicus with 12 samples.

Results

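Proteoglycans of the extracellular matrix were followed in the urinary bladder of female Wistar rats after the spinal cord had been cut. The 9 genes described are decorin (Dcn), lumican (Lum), biglycan (Bgn), fibromodulin (Fmod), osteoglycin (Ogn), prolargin (Prelp), asporin (Aspn), versican (Vcan) and aggrecan (Acan). They were chosen by name as small leucine-rich and large proteoglycans, and all 9 are among the 40154 genes of the deposited count table. Of these, 8 are listed under their own symbol, and Ogn has 2 entries with a gene number attached. Rats aged 10 to 12 weeks had the cord completely transected at thoracic segment T10, which leaves a neurogenic bladder, and bladders were taken at day 7, day 14 or day 28. The level T10 is that of the treatment label, and the submitters' design text gives a range of segments that ends at T10. The controls were normal rats of the same strain, and the labels do not say that they had a sham operation. Each of the 4 groups has 3 libraries of ribosomal-RNA-depleted total RNA from bladder tissue, read as single 50-base reads. The labels give replicate numbers but do not say that each library is 1 rat, so p-values measure the spread between libraries.

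Small leucine-rich proteoglycans are secreted proteins with a curved leucine-rich repeat core that sits on collagen fibrils and sets how thick and how evenly spaced the fibrils grow. Decorin and biglycan carry chondroitin or dermatan sulfate chains, lumican and fibromodulin carry keratan sulfate, and several of the family bind growth factors such as TGF-beta. Versican and aggrecan are large chondroitin sulfate proteoglycans, called lecticans, that bind hyaluronan and hold water. Versican is typical of loose, provisional matrix, and aggrecan of cartilage. In the bladder wall these proteins lie in the lamina propria and between the muscle bundles, and fibroblasts are a main source of decorin and lumican.

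Library totals ran between 26275314 and 30747936 counts. Of the 9 genes, 7 passed the filter on low counts and were tested, and Acan and Aspn did not. Markers of smooth muscle and of urothelium were present in every library. The summed level of 11 urothelial genes was 5175 to 9078 CPM. For 10 smooth muscle genes it was 26230 to 43510 CPM at day 7 and 23670 to 31820 CPM at day 14. At day 28 it was 10790 to 23520 CPM, below the 25210 to 28080 CPM of the controls. CPM are counts scaled to a common library size after TMM normalization, and they do not correct for gene length. Other markers also moved with time. All 10 macrophage and all 10 cell cycle markers were called higher at day 7 than in controls. So were 8 of 9 endothelial and 6 of 6 red blood cell markers. In that comparison 26.1% of all genes tested were called. The red blood cell markers summed to 494, 1092 and 9612 CPM in day-7 replicates 1, 2 and 3, and to 194 to 862 CPM in controls. These groups overlapped, and day-7 replicate 3 was far above the rest. Of the 6 adipocyte markers 5 were called higher and 1 lower, while their summed level was 249 to 421 CPM at day 7 and 314 to 320 CPM in controls. At day 7, 6 of 11 urothelial and 4 of 8 Schwann cell markers were called lower and 0 higher. Of the 10 smooth muscle markers, 4 were called higher and 2 lower. At day 28 all 10 macrophage, 8 of 10 cell cycle and 6 of 9 endothelial markers were called higher than in controls and 0 lower. There 4 of 11 urothelial and 2 of 10 smooth muscle markers were called lower and 0 higher, with 18.5% of all genes called. In bulk tissue, fewer cells of a type and less RNA per cell cannot be told apart, and the part of these shifts in the results was not tested.

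Gene positions are on rn6, the build named in the submitters' processing notes. Dcn (chr7:38742250-38782282, plus strand) and Lum (chr7:38820058-38826862, plus strand) lie next to each other, as do Prelp (chr13:50749526-50773934, minus strand) and Fmod (chr13:50874886-50885503, plus strand). Bgn is on the X chromosome (chrX:157319042-157331204, minus strand), Vcan on chromosome 2 (chr2:18490102-18587340, minus strand) and Acan on chromosome 1 (chr1:140762758-140824441, plus strand). Ogn (chr17:14607442-14628274) and Aspn (chr17:14655958-14681355) lie on the minus strand of chromosome 17. Promoter sequences were matched for 6 of the 9 genes in the RefSeq promoter table of rat build GRCr8, namely Lum, Fmod, Ogn, Aspn, Vcan and Acan. Shown are Vcan, Lum and Fmod, the 3 of these that were tested and have a single entry in the gene table, and which took different courses after injury. Each window runs from 250 bases before the start site to 50 bases after it, 5′ to 3′ on the strand of the gene. Capitals mark matches to the motifs searched on both strands: the TATA box TATAAA, the AP-1 site TGANTCA, the Smad box CAGAC, the TEAD site GGAATG and the Sp1 box GGGCGG.
Vcan promoter (GRCr8, chr2:22595906-22596205, minus strand): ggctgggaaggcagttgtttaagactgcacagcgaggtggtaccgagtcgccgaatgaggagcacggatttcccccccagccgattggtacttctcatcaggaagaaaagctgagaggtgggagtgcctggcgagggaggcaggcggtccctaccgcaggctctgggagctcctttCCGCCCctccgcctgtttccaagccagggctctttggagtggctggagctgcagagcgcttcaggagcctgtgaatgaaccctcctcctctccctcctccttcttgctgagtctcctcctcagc
Lum promoter (GRCr8, chr7:34245456-34245755, plus strand): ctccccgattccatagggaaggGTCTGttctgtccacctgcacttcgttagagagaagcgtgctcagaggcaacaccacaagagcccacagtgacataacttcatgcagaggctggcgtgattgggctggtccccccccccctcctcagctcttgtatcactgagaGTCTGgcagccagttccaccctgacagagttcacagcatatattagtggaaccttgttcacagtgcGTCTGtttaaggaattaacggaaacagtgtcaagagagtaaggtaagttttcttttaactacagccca
Fmod promoter (GRCr8, chr13:48045317-48045616, plus strand): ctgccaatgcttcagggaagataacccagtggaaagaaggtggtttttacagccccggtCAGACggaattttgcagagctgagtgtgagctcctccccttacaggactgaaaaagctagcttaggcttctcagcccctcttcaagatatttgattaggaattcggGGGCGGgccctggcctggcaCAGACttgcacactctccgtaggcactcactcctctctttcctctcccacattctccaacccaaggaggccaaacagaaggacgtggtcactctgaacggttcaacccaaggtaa
The Vcan window, the first of 2 start sites listed, holds a single Sp1 box, found in 33.1% of all 33469 promoters of the table. The Lum window holds 3 Smad boxes, and the Fmod window holds 2 of them and 1 Sp1 box. Smad boxes are in 50.1% of all promoters. None of these 3 windows has the letters of the TATA box (14.2% of promoters), the AP-1 site (7.33%) or the TEAD site (14.2%). A match is a description of the letters only.

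At day 7 the biglycan and versican genes stood far above their control levels, while lumican was near its control level and decorin had its lowest mean. By day 14 biglycan and versican no longer differed detectably from control, and lumican was below its control level at both day 14 and day 28. Against control, 2 of the 7 tested genes were called higher at day 7 and 0 lower, by edgeR's quasi-likelihood test with Benjamini-Hochberg adjustment over all genes at an adjusted p under 0.05. In that comparison 26.1% of all 17687 tested genes were called, so the count of 2 is near the background. At day 14, 0 were called higher and 1 lower (2.45% of all genes called), and at day 28, 0 higher and 1 lower (18.5% of all genes called). Between days, 3 of 7 were lower at day 14 than at day 7 (19.5% of all genes called) and 4 of 7 lower at day 28 than at day 7 (18.7%). The change against day 14 at day 28 was called in 0 of 7 by edgeR (4.34% of all genes called). In that comparison 1 of the 7 had an unadjusted p under 0.05, and DESeq2 called 1, which was Ogn.

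**Figure D1:**
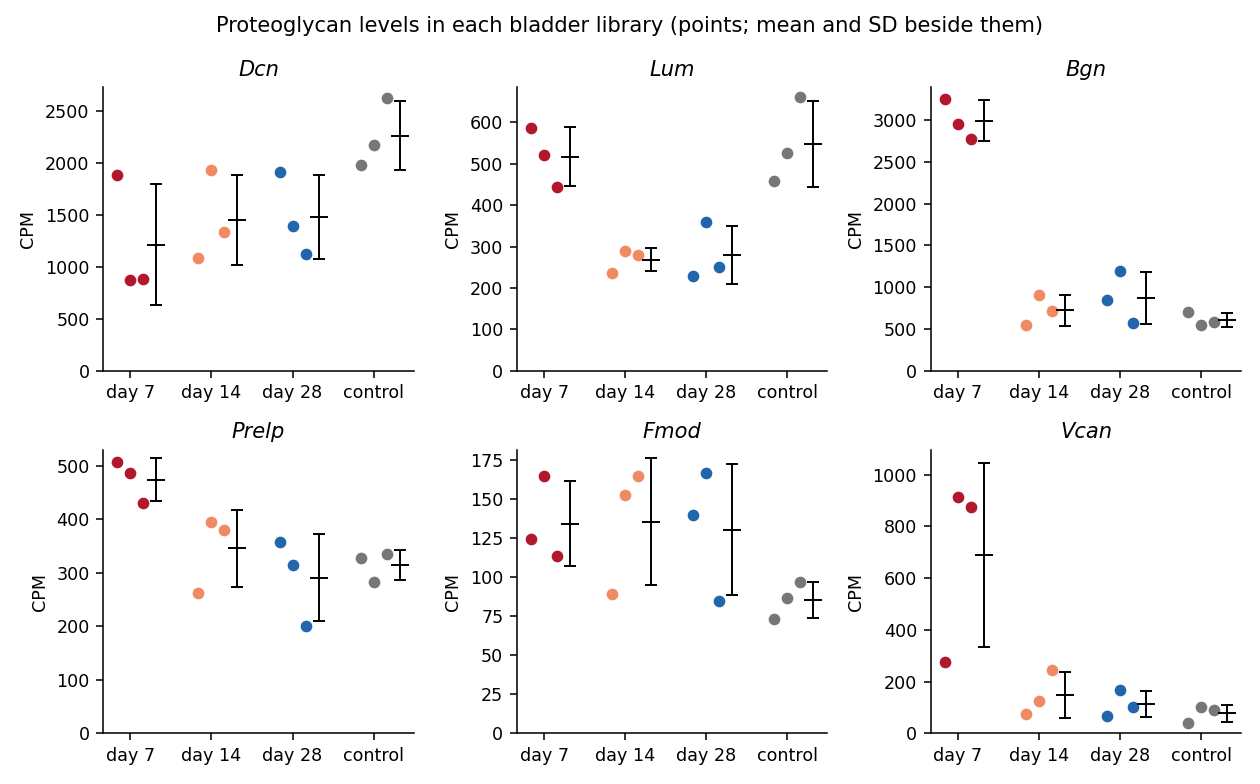
CPM (vertical axis, linear from 0) of 6 proteoglycan genes in each library at day 7, day 14, day 28 and in controls, with the group mean and SD beside the points (n = 3). Bgn stands at 2773 to 3256 CPM at day 7, above all other libraries, and Lum lies at 229 to 359 CPM at days 14 and 28, below every control and every day-7 library.

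Biglycan, which carries chondroitin or dermatan sulfate chains and can also act as a danger signal to immune cells when freed from the matrix, rose at day 7. Bgn was at 3256, 2947 and 2773 CPM at day 7. Its levels were 543, 910 and 713 CPM at day 14, 842, 1188 and 576 CPM at day 28, and 707, 547 and 581 CPM in controls. All 3 day-7 libraries were above all other libraries, and the day-14 and day-28 groups each overlapped the controls. The log2 fold change at day 7 was 2.29 ± 0.26 (SE, n = 3 per group, adjusted p = 0.000207). At day 14 it was 0.24 ± 0.24 (adjusted p = 0.674) and at day 28 it was 0.51 ± 0.25 (adjusted p = 0.181), and neither was called. Without day-28 replicate 3 the day-28 difference was 0.73 and was called (adjusted p = 0.0484). Set against day 7 directly, Bgn was lower at day 14, with a log2 fold change of -2.05 ± 0.25 (adjusted p = 0.000499). At day 28 the log2 fold change against day 7 was -1.78 ± 0.25 (adjusted p = 0.00118). These 3 calls held in all 13 alternatives tried.

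Versican, the large hyaluronan-binding proteoglycan of provisional matrix, showed the largest log2 change of the 7 tested genes at day 7 but a wide spread. Vcan was at 277, 914 and 874 CPM at day 7. It was at 73.0, 125 and 246 CPM at day 14, at 67.0, 167 and 102 CPM at day 28, and at 41.1, 101 and 88.2 CPM in controls. Even the lowest day-7 library, replicate 1, was above every other library of the study, while both later groups overlapped the controls. The log2 fold change at day 7 was 3.16 ± 0.58 (adjusted p = 0.0026), and it was called in all 13 alternatives. At day 14 the difference from control was 0.95 ± 0.54 (adjusted p = 0.4) and at day 28 it was 0.55 ± 0.54 (adjusted p = 0.532). The fall at day 14 against day 7 was -2.22 ± 0.56 (adjusted p = 0.0183), and it was lost without day-7 replicate 2 or 3 or without day-14 replicate 1 or 2. Its adjusted p was 0.0546 to 0.065 in those 4 fits. At day 28 against day 7 the fold change was -2.62 ± 0.57 (adjusted p = 0.00926).

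**Figure D2:**
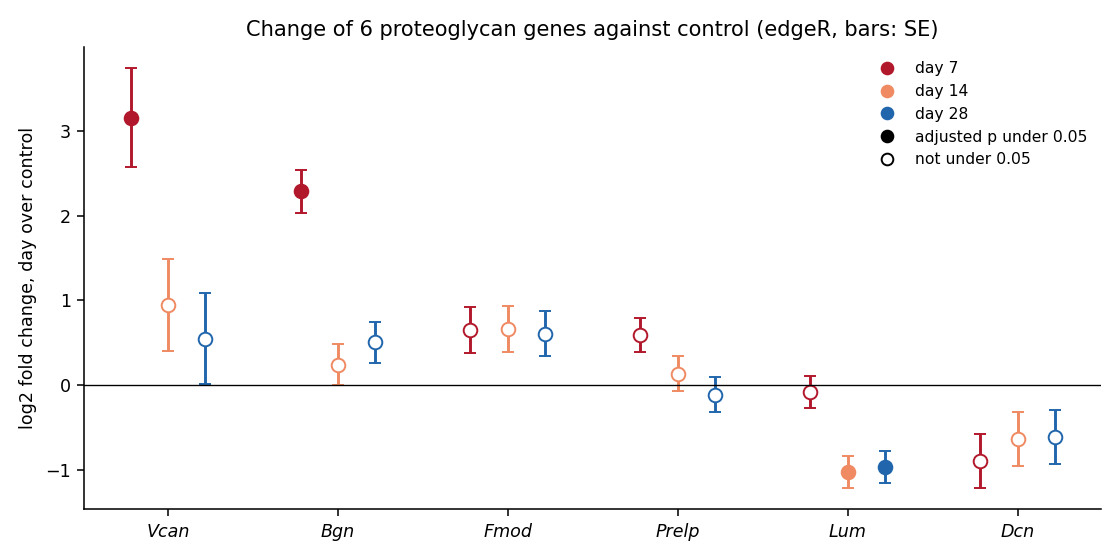
Log2 fold change over control (vertical axis) of 6 proteoglycan genes at day 7, day 14 and day 28, with bars for the SE from edgeR. Filled points have an adjusted p under 0.05. Vcan at 3.16 and Bgn at 2.29 are filled at day 7 only, and Lum at -1.03 and -0.97 is filled at days 14 and 28.

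Versican transcripts differ in whether they keep a pair of large exons that encode the chain-bearing regions, named GAG-alpha and GAG-beta. The deposited transcript counts list 4 Vcan transcripts of 11934, 9134, 6726 and 3828 bases. Reads were assigned to the exons here by subtracting the counts of transcripts that differ by about 1 exon, taken as 2898 bases for GAG-alpha and 5306 bases for GAG-beta. Per base, GAG-alpha took 19.9, 22.0 and 24.3% of the reads of both exons at day 7. Its share was 19.1, 16.2 and 15.5% at day 14, 16.2, 18.7 and 18.0% at day 28, and 17.9, 16.8 and 14.8% in controls. The day-7 libraries were all above the controls and above the other days, with a mean of 22.0% ± 2.22 at day 7 and 16.5% ± 1.57 in controls (SD, n = 3 each). An exact two-sided permutation test gave p = 0.1, the smallest that 3 against 3 allow, so this design cannot reach 0.05. The same exact permutation test gave p = 0.8 for day 14 and p = 0.4 for day 28 against control. GAG-beta reads were denser than those of the shortest transcript in all groups, at 170% ± 12.3 of it per base at day 7, 149% ± 15.1 at day 14, 159% ± 16.3 at day 28 and 152% ± 16.1 in controls. By the GAG-alpha shares, GAG-beta was the more densely covered of the 2 exons in all 12 libraries. Under even coverage, an exon kept by only some transcripts would not be denser than the shortest transcript. The shares therefore do not measure amounts of transcript.

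Decorin, the fibril-binding proteoglycan that holds TGF-beta away from its receptors, was lower on average at every day after injury but was not called. Dcn was at 1886, 873 and 880 CPM at day 7. It was at 1084, 1935 and 1338 CPM at day 14, at 1920, 1390 and 1128 CPM at day 28, and at 1984, 2180 and 2632 CPM in controls. Every injured library lay below every control, yet the highest injured libraries, at 1886 to 1935 CPM, were close to the lowest control. Separation of all 3 libraries of a day from all 3 controls, in either direction, was seen in 45.3% of all genes tested at day 7, 24.7% at day 14 and 40.5% at day 28. Of the 7 tested proteoglycan genes, 5 were separated from control in either direction at day 7, 2 at day 14 and 2 again at day 28. At day 7 Bgn, Vcan, Fmod and Prelp were above control and only Dcn was below. At days 14 and 28 Dcn and Lum were below. Against day 7, 4 were separated at each later day (35.0% of all genes at day 14 and 35.8% at day 28). At day 28 against day 14 it was 0 (22.4%). The log2 fold change of Dcn was -0.90 ± 0.32 at day 7 (adjusted p = 0.0582), -0.64 ± 0.32 at day 14 (adjusted p = 0.329) and -0.61 ± 0.32 at day 28 (adjusted p = 0.211). Without day-7 replicate 1 the day-7 value was -1.38 and was called (adjusted p = 0.00479). Scaling by total counts alone, testing without a filter on low counts and DESeq2 also called it, at adjusted p = 0.0325, 0.0443 and 0.0162. Day-7 replicate 1 thus had the highest Dcn and the lowest Vcan level of its group. Its summed markers were 5128 CPM for fibroblasts and 43510 CPM for smooth muscle, against 3913 and 2935 CPM and 26230 and 30340 CPM in replicates 2 and 3. The part of these differences in the spread of Dcn and Vcan was not tested.

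Within the reads of decorin, the balance between the 2 deposited transcripts, of 1618 and 1807 bases, differed between the groups. The gene spans 1833 exonic bases, which leaves 26 bases outside the longer transcript and 215 outside the shorter one, and reads that fall in 1 transcript only were taken as specific. Shares of these reads were not scaled to the 26 and 215 bases. They compare the groups and do not tell which transcript is more abundant. Of the specific reads, 67.1, 55.7 and 57.8% came from the shorter transcript at day 7. The share was 42.3, 35.0 and 40.0% at day 14, 34.9, 39.9 and 39.0% at day 28, and 28.5, 30.2 and 32.1% in controls. All 9 injured libraries were above all 3 controls, and the day-7 libraries were above all others. Group means were 60.2% ± 6.04 at day 7, 39.1% ± 3.74 at day 14, 38.0% ± 2.64 at day 28 and 30.3% ± 1.80 in controls (SD, n = 3 each). The exact two-sided permutation p against control was 0.1 for each day, the smallest possible with 3 against 3. Reads specific to the shorter transcript were 7.58 to 8.82% of the reads of the gene at day 7 and 4.01 to 4.92% in controls, and those specific to the longer one were 4.33 to 6.01% at day 7 and 9.33 to 10.4% in controls. The sources used here do not say how a read shared by transcripts was counted.

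**Figure D3:**
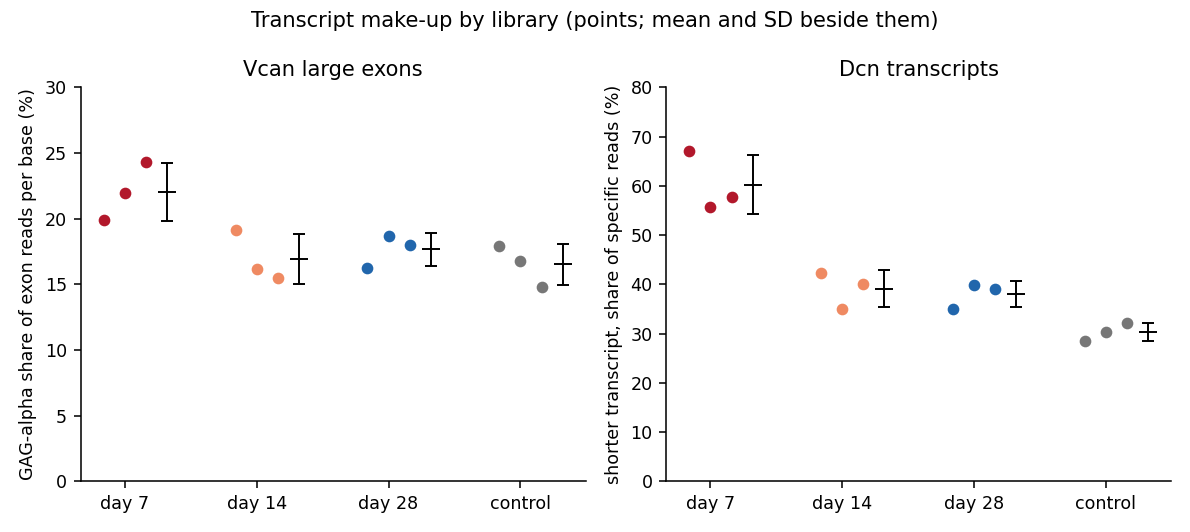
Left, share of GAG-alpha among reads of the 2 large Vcan exons per base, in percent. Right, share of the shorter Dcn transcript among reads specific to 1 of the 2 transcripts, in percent and not scaled to length. Points are libraries, with the group mean and SD beside them (n = 3), and in both panels the 3 day-7 libraries are the highest, at 19.9 to 24.3% and 55.7 to 67.1%.

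Lumican, a keratan sulfate proteoglycan of fine collagen fibrils, followed another course than biglycan and versican: it was near control at day 7 and lower afterwards. Lum was at 587, 521 and 444 CPM at day 7. It was at 237, 288 and 280 CPM at day 14, at 229, 359 and 250 CPM at day 28, and at 457, 526 and 662 CPM in controls. All 6 libraries of days 14 and 28 were below all 6 of day 7 and the controls, which overlapped each other. The log2 fold change was -0.08 ± 0.19 at day 7 (adjusted p = 0.78), -1.03 ± 0.19 at day 14 (adjusted p = 0.0233) and -0.97 ± 0.19 at day 28 (adjusted p = 0.00506). The day-28 call held in all 13 alternatives, and the day-14 call was lost without day-14 replicate 3 or without any 1 of the controls, at adjusted p = 0.0596 to 0.0942. Against day 7, Lum had a fold change of -0.95 ± 0.19 at day 14 (adjusted p = 0.00617) and of -0.89 ± 0.19 at day 28 (adjusted p = 0.00857), and both calls held in all 13 alternatives. These 13 do not include a minimum log2 change of 1 in size, which the changes of -0.97, -0.95 and -0.89 did not reach.

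Fibroblast markers are given beside decorin and lumican because fibroblasts make much of both. The summed level of the 12 fibroblast markers was 2935 to 5128 CPM at day 7, 3810 to 4945 CPM at day 14, 3098 to 4442 CPM at day 28 and 6498 to 7794 CPM in controls, with no injured library reaching the controls. Mfap4 was listed at 0 in every library. Among the 11 markers tested, 3 were called higher and 1 lower at day 7, 0 either way at day 14, and 1 higher and 3 lower at day 28. The shares of all genes called were 26.1%, 2.45% and 18.5% at these days. Their part in the levels of Dcn and Lum was not tested.

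Prolargin, which anchors basement membranes to the connective tissue below them, had its highest levels at day 7. Prelp was at 506, 486 and 429 CPM at day 7. It was at 263, 395 and 379 CPM at day 14, at 358, 315 and 200 CPM at day 28, and at 327, 282 and 334 CPM in controls. The day-7 libraries were above all others, and the later groups overlapped the controls. The day-7 log2 fold change of 0.59 ± 0.20 had an adjusted p of 0.0531 by edgeR and was not called, whereas DESeq2 (adjusted p = 0.0243), a fit of the day-7 and control libraries alone (0.00595) and a fit with no filter on low counts (0.049) called it. At day 14 the difference from control was 0.14 ± 0.20 (adjusted p = 0.796) and at day 28 it was -0.11 ± 0.20 (adjusted p = 0.753). Prelp was lower at day 28 than at day 7, with a fold change of -0.70 ± 0.21 (adjusted p = 0.0337), a call that was lost in 7 of 13 alternatives. These included leaving out any 1 day-7 library or day-28 replicate 2 or 3 (adjusted p = 0.0554 to 0.0904). A long non-coding gene on the opposite strand overlaps Prelp, with 310 counts over all libraries against 121968 for Prelp.

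Fibromodulin, a keratan sulfate proteoglycan that guides collagen crosslinking, had higher means after injury, but no day was called. Fmod was at 124, 165 and 113 CPM at day 7. It was at 88.8, 153 and 165 CPM at day 14, at 140, 167 and 84.5 CPM at day 28, and at 73.4, 86.5 and 96.5 CPM in controls. The day-7 libraries were all above the controls, and 1 library of each later day lay within them. The log2 fold changes were 0.65 ± 0.27 at day 7 (adjusted p = 0.0972), 0.66 ± 0.27 at day 14 (adjusted p = 0.224) and 0.61 ± 0.27 at day 28 (adjusted p = 0.144). The fit of day-7 and control libraries alone called day 7 (adjusted p = 0.0207), and leaving out day-28 replicate 3 gave 0.84 at day 28 and a call (adjusted p = 0.0459). Fmod per length was 0.124 to 0.186 of Lum at day 7, 0.221 to 0.345 at day 14, 0.198 to 0.359 at day 28 and 0.0855 to 0.0966 in controls. The ratio of the 2 keratan sulfate proteoglycans was thus higher in all 9 injured libraries than in the controls.

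Aggrecan, the chief proteoglycan of cartilage, was at the edge of detection. Acan had 27, 32 and 6 counts at day 7. It had 2, 3 and 0 counts at day 14, 0, 3 and 2 counts at day 28, and 0, 2 and 5 counts in controls. The day-7 libraries were above all others, with the lowest of them 1 count above the highest control. The ratio of summed counts, scaled by library size, was 9.34 at day 7 over control, with an exact 95% interval of 4.29 to 24.1 that covers counting error only. At day 14 the ratio was 0.709 (0.177 to 2.6) and at day 28 it was 0.659 (0.165 to 2.41). With the filter on low counts removed, edgeR gave an adjusted p of 0.0547 for day 7 against control, 0.0433 for day 14 against day 7 and 0.0371 for day 28 against day 7. Acan also passed the filter in fits that left out 1 library, but not without day-7 replicate 1 or 2. It passed through those 2 libraries, where it was highest, so a call of a higher day-7 level is not independent support. The day-7 difference from control was then called without day-7 replicate 3 (log2 fold change 3.57, adjusted p = 0.0303) and without control replicate 3 (4.27, adjusted p = 0.0476). It was not called without control replicate 1 or 2 (adjusted p = 0.113 and 0.116). Against day 7, neither later day was called when a library of that later day was left out (adjusted p = 0.055 to 0.0876). Without day-7 replicate 3, day 14 and day 28 were both called lower than day 7 (adjusted p = 0.0283 and 0.028). The summed level of 9 cartilage markers was 10.5 to 18.3 CPM at day 7 and 20.3 to 23.0 CPM in controls.

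Osteoglycin and asporin, neighbours in the small leucine-rich family, had few counts and are treated as uncertain. The gene table lists a stretch of chromosome 17 in 2 places: Ogn has a second entry at chr17:15447716-15468793, and Aspn has a partner, Aspnl1, at chr17:15496470-15521143 with the same 3522 exonic bases. Over all libraries the Ogn entry described here had 658 counts and its second entry 21, and Aspn had 42 and Aspnl1 21. How alike the entries are in sequence, and whether reads were lost between them, was not tested. Nol8, a nucleolar protein gene at the end of the stretch, had 57 and 33 counts in its 2 entries over all libraries, whereas Iars, Ippk and Bicd2 beside the second place had 19345, 5059 and 41933 counts. Ogn had 46, 14 and 11 counts at day 7, 12, 19 and 11 at day 14, 229, 18 and 38 at day 28, and 170, 14 and 76 in controls. Within day 28 and within the controls the libraries differed more than 10-fold, and every pair of groups overlapped. The log2 fold change was -1.83 ± 0.99 at day 7 (adjusted p = 0.198), -2.62 ± 1.04 at day 14 (adjusted p = 0.212) and 0.05 ± 0.93 at day 28 (adjusted p = 0.981). Summing both entries gave -1.72, -2.42 and 0.04. Aspn had 14, 1 and 2 counts at day 7, 4, 3 and 2 at day 14, 3, 4 and 2 at day 28, and 1, 0 and 6 in controls. The ratio of its summed counts to control was 2.44 (0.963 to 6.97) at day 7, and every interval included equality.

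Since the genes differ in length, their levels were compared per kilobase of deposited gene length. At day 7 the order was Bgn (1231 CPM per kb), Dcn (662), Lum (299), Prelp (106), Vcan (57.2) and Fmod (45.6), in which only Vcan and Fmod overlapped. In the order at day 14, Dcn (792) was followed by Bgn (297), Lum (155), Prelp (77.1), Fmod (46.0) and Vcan (12.3), with no overlap between neighbours. The same order held at day 28, with Dcn at 807, Bgn at 357, Lum at 162, Prelp at 64.9, Fmod at 44.3 and Vcan at 9.32, and there Prelp and Fmod overlapped. Controls had Dcn (1236), Lum (317), Bgn (252), Prelp (70.1), Fmod (29.0) and Vcan (6.38), and Lum and Bgn overlapped. Biglycan thus stood first at day 7 and decorin in the other 3 groups.

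Biglycan made up 51.8% ± 4.71 of the summed level per length of the 9 genes at day 7, 21.5% ± 0.236 at day 14, 24.5% ± 5.35 at day 28 and 13.4% ± 2.98 in controls (SD, n = 3 each). Decorin made up 26.7% ± 7.81 at day 7, 57.0% ± 3.13 at day 14, 55.9% ± 7.82 at day 28 and 64.5% ± 2.08 in controls. The ratio of Bgn to Dcn per length was 1.30, 2.55 and 2.38 at day 7, 0.378, 0.355 and 0.402 at day 14, 0.331, 0.645 and 0.385 at day 28, and 0.269, 0.189 and 0.166 in controls. Every injured library had a higher ratio than every control, and only at day 7 did biglycan exceed decorin. Together the 9 genes took 0.560% ± 0.0672 of all counts at day 7, 0.312% ± 0.0735 at day 14, 0.328% ± 0.0698 at day 28 and 0.397% ± 0.0461 in controls.

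**Figure D4:**
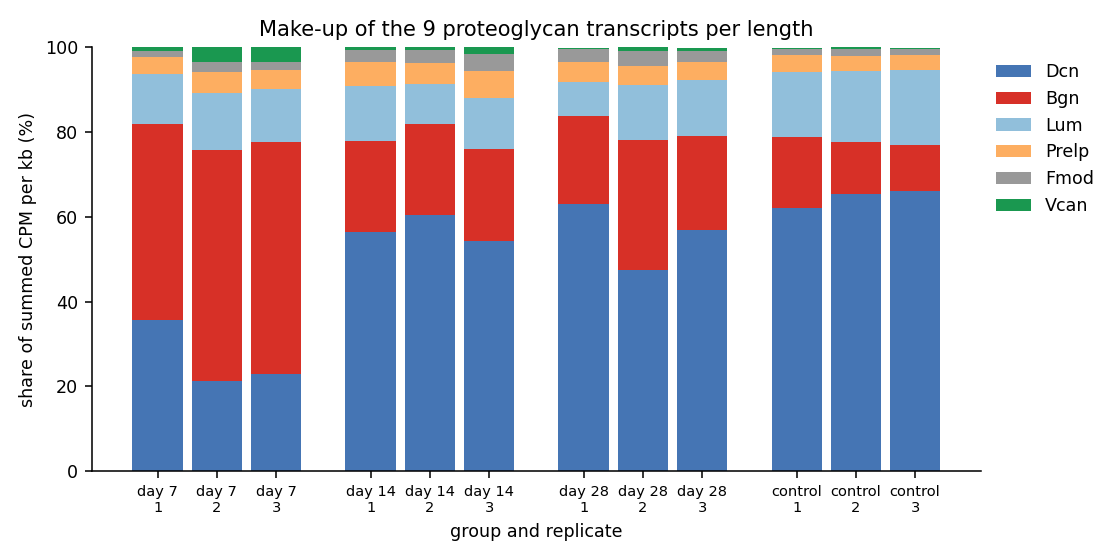
Share of each gene in the summed CPM per kilobase of the 9 proteoglycan genes (vertical axis, percent) in each library, by group and replicate; Ogn, Aspn and Acan are included in the sum but too low to see. Bgn takes 46.4 to 54.7% at day 7 and at most 16.7% in controls, and Dcn takes 21.4 to 35.6% at day 7 and 62.2 to 66.1% in controls.

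Genes that build, bind or cut proteoglycans were counted in 7 lists. Against control, 26.1% of all genes tested were called at day 7, 2.45% at day 14 and 18.5% at day 28. A list whose count is near these shares shows no more than that background. Of 22 genes of chondroitin and dermatan sulfate synthesis, 10 were called higher and 0 lower at day 7, 0 higher and 1 lower at day 14, and 0 higher and 4 lower at day 28. Their median log2 fold change at day 7 was 0.43, against -0.01 over all genes tested. Chsy1, which polymerizes chondroitin, was at 61.7 ± 25.7 CPM at day 7 and 20.5 ± 3.48 CPM in controls (log2 fold change 1.59 ± 0.28, adjusted p = 0.00189). Csgalnact1, which starts chondroitin chains, was at 37.2 ± 12.2 CPM at day 7 and 11.5 ± 0.959 CPM in controls (1.70 ± 0.30, adjusted p = 0.00193). Chst14, which sulfates dermatan chains, was at 22.1 ± 2.33 CPM at day 7 and 11.6 ± 1.36 CPM in controls (0.93 ± 0.14, adjusted p = 0.000923). Chpf2, a chondroitin polymerizing factor, had a day-7 change of 0.66 ± 0.12 (adjusted p = 0.00189), and none of these 4 was called at day 14 or day 28. At day 28 against day 7, 13 of the 22 were lower and 0 higher (18.7% of all genes called).

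Of 7 genes of keratan sulfate synthesis, 3 were higher and 2 lower at day 7, with a median of -0.37, and 0 were called at day 14 or day 28. The sulfotransferase gene Chst1 was higher at day 7, at 12.2 ± 0.329 CPM against 5.22 ± 1.24 CPM in controls (1.22 ± 0.31, adjusted p = 0.0138), and B3gnt2, which extends the chains, was lower (-0.37 ± 0.09, adjusted p = 0.0127). The Chst1 call was lost without control replicate 2 (0.0597) and the B3gnt2 call without control replicate 3 (0.0582). B4galt1 (0.55 ± 0.16, adjusted p = 0.0238) and Chst2 (0.68 ± 0.19, adjusted p = 0.024) were the other higher genes. The B4galt1 call was lost without day-7 replicate 2 or 3 or control replicate 1 or 2, and with total counts alone (0.0525 to 0.104). At day 28 B4galt1 was called higher in a fit of the 2 groups alone (0.0234) and with a replicate block (0.0325). The Chst2 call was lost without day-7 replicate 2 or 3 or any 1 control (0.0539 to 0.1045). Among 13 hyaluronan, link protein and other lectican genes, 6 were higher and 1 lower at day 7, 0 were called at day 14, and 1 was higher and 1 lower at day 28. Lyve1 was at 120 ± 7.20 CPM at day 7 and 27.6 ± 8.67 CPM in controls (2.12 ± 0.43, adjusted p = 0.00432). Tnfaip6, which transfers heavy chains onto hyaluronan, was at 38.5 ± 28.4 CPM at day 7 and 2.39 ± 1.48 CPM in controls (4.01 ± 0.92, adjusted p = 0.00857). Cd44, a hyaluronan receptor, was higher at day 7 (0.69 ± 0.15, adjusted p = 0.00723) and at day 28 (0.68 ± 0.15, adjusted p = 0.0104). Hapln4, a link protein, was lower at both, at 23.6 ± 4.50 CPM at day 7, 11.1 ± 4.46 CPM at day 28 and 67.1 ± 7.85 CPM in controls. At day 14 DESeq2 called Lyve1 and Cd44 higher (adjusted p = 0.0165 and 0.028) and Hapln4 lower (adjusted p = 0.0224). It called 1360 of all 17687 genes tested there.

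Of the 12 genes of proteases that cut proteoglycans and their inhibitor, 9 were higher and 0 lower at day 7, 1 was higher and 0 lower at day 14, and 1 higher and 1 lower at day 28. Their day-7 median was 1.27. Adamts8 was at 19.4 ± 2.24 CPM at day 7, 5.02 ± 3.34 CPM at day 14, 6.44 ± 3.51 CPM at day 28 and 0.550 ± 0.396 CPM in controls, and it was called higher at all 3 days (day-7 log2 fold change 5.13 ± 0.67, adjusted p = 0.000413). Its day-14 call (adjusted p = 0.0327) was lost without day-14 replicate 2 or 3 or any 1 control (0.0611 to 0.125) and in a fit of the 2 groups alone (0.0517). The controls alone would not have taken Adamts8 past the filter on low counts, so it passed through injured libraries, where it was high. Its rise is therefore not independent support. Adamts1, which cuts versican and aggrecan, was at 407 ± 158 CPM at day 7 and 70.2 ± 19.8 CPM in controls (2.54 ± 0.34, adjusted p = 0.000453), and was not called later by edgeR with all libraries. Htra1, a secreted serine protease with small leucine-rich proteoglycans among its substrates, had a day-7 change of 1.28 ± 0.18 (adjusted p = 0.000579). Tll1, of the family of proteases that mature biglycan, had one of 1.93 ± 0.30 (adjusted p = 0.000985). At day 14 against day 7, 8 of the 12 were lower and 0 higher (19.5% of all genes called).

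Collagens and collagen-bound partners of the small proteoglycans stood at 7 of 10 higher and 0 lower at day 7, 0 called at day 14, and 0 higher and 2 lower at day 28. The fibril-associated collagen gene Col12a1 was at 2631 ± 798 CPM at day 7 and 389 ± 105 CPM in controls (2.76 ± 0.35, adjusted p = 0.000385), and Col6a3, whose protein binds decorin and biglycan in its network, at 3302 ± 505 CPM and 908 ± 247 CPM (1.86 ± 0.29, adjusted p = 0.000966). Col5a1 (1.81 ± 0.28, adjusted p = 0.000926) and Col5a2 (1.74 ± 0.29, adjusted p = 0.00148) were also higher at day 7. Of 20 tested genes of other proteoglycans, 9 were higher and 2 lower at day 7, 0 higher and 1 lower at day 14, and 2 higher and 4 lower at day 28. Col18a1 had the smallest p, at 236 ± 29.6 CPM at day 7 and 34.4 ± 3.31 CPM in controls (2.78 ± 0.23, adjusted p = 5.69e-05). It was also higher at day 28 (1.28 ± 0.22, adjusted p = 0.0025). Hspg2, which encodes perlecan of basement membranes, was at 2450 ± 120 CPM at day 7 and 787 ± 33.5 CPM in controls (1.64 ± 0.19, adjusted p = 0.000228). Esm1 was higher at day 7 (2.05 ± 0.35, adjusted p = 0.00167). Spock2, a testican, was lower at day 7 (-2.72 ± 0.40, adjusted p = 0.000714) and at day 28 (-1.54 ± 0.38, adjusted p = 0.0159). The day-28 call was lost without day-28 replicate 3 (0.055) or control replicate 1 (0.0608). Among the 8 other small leucine-rich genes tested, 1 was higher and 1 lower at day 7, 0 were called at day 14, and 1 was higher at day 28. These counts are near the shares of all genes called. The higher one was Podnl1, at 1.98 ± 1.79 CPM at day 7 and 0.0835 ± 0.0224 CPM in controls (4.50 ± 0.89, adjusted p = 0.00385), and again the one called at day 28 (3.06 ± 0.89, adjusted p = 0.0344). That day-28 call was lost without day-28 replicate 3 or any 1 control, at adjusted p = 0.0866 to 0.131. With so few counts in controls, and 0.119 ± 0.0577 CPM at day 14, Podnl1 passed the filter only through libraries of days 7 and 28, where it was high. Its rise at those days is therefore not independent support. The lower one was Ecm2 (-1.92 ± 0.54, adjusted p = 0.0227), whose call was lost without day-7 replicate 2 or 3 or control replicate 3 (0.078 to 0.0926). It lies in the stretch of chromosome 17 that is listed in 2 places, with 1014 counts over all libraries against 11 for its other entry.

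**Figure D5:**
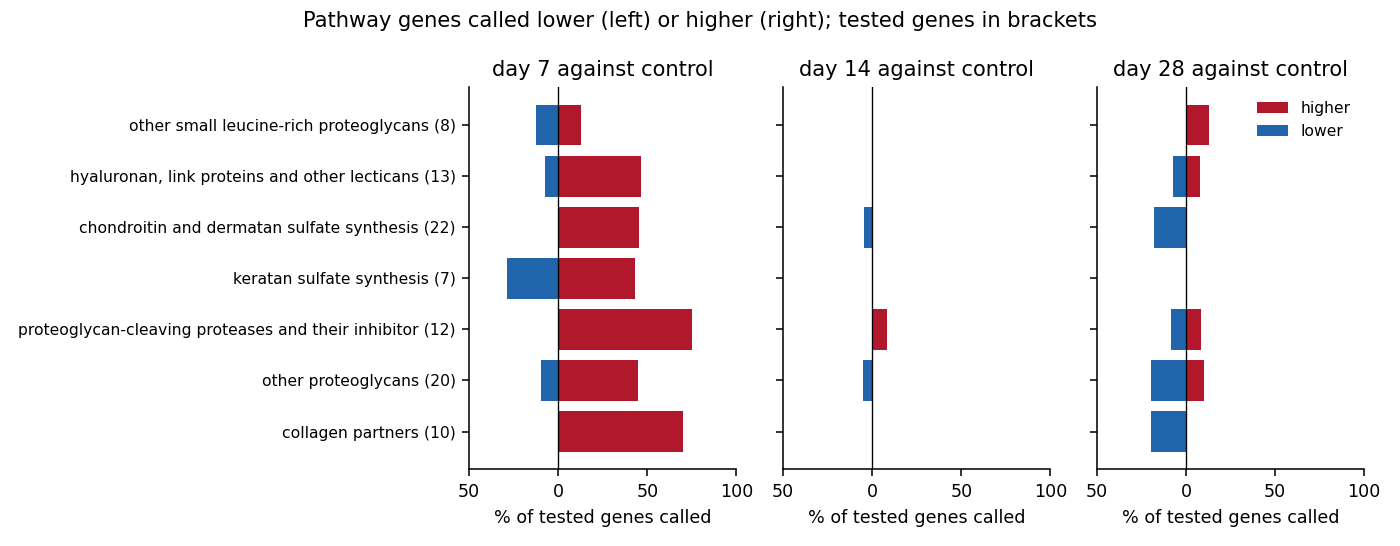
Share of tested genes called by edgeR at an adjusted p under 0.05 in 7 proteoglycan-related lists (horizontal axis, percent; lower to the left, higher to the right; number tested in brackets), at day 7, day 14 and day 28 against control. At day 7, 9 of 12 protease genes and 7 of 10 collagen partners were higher, and at day 14 each list has at most 1 called gene.

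The genes closest to each proteoglycan over the 12 libraries were found by the root-mean-square difference of log2 CPM centred on the control mean, among 11088 genes with a mean of at least 5 CPM. For Bgn they were Pxdn (0.21), Thy1 (0.25) and Slit3 (0.26), against a root-mean-square of 1.21 for Bgn itself. Pxdn encodes peroxidasin, which crosslinks collagen IV, and its log2 fold changes were 2.52, 0.47 and 0.51 at days 7, 14 and 28. Dcn was closest to Il17d (0.21), to Ddr2 (0.22), a receptor for fibrillar collagen, and to Adh1 (0.24). The nearest to Lum were Kazald1 (0.22), Agtr1a (0.26), an angiotensin receptor gene, and Afap1l2 (0.26). Prelp had the smallest differences of the tested genes, with Fgfr1 (0.12), Hspa12b (0.13) and Anxa5 (0.13). Its own root-mean-square from control was also the smallest, at 0.39. Vcan had larger differences, with Angpt4 (0.45), Penk (0.47) and Sfrp1 (0.51), but its own value was the largest, at 1.75. The size of a difference therefore does not rank the genes by likeness of course. Fmod had Cygb (0.27), Frmd4b (0.27) and Hif1a (0.28). The libraries share their scaling, and no test was made of this likeness.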

How the data were processed

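RNA was measured in 12 bladder libraries, 3 for each of 4 groups taken from the sample titles. The deposited values are read counts, for genes and for transcripts, which are whole numbers without normalization by their values and the file headers. Gene lengths in bases were deposited by the authors and were used to compare levels between genes. Build rn6, HISAT2 2.1.0, HTSeq 0.11.2 and bcl2fastq are listed in the submitters' processing notes, with no role for each. Strand use in counting, and how a read in several transcripts was counted, are not given in the sources used here. A deposited transcript table was used for Vcan and Dcn. Deposited tables of the authors' own comparisons of non-coding RNA were not used.

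The test was the quasi-likelihood test of edgeR 4.0.16 (R 4.3.3), on genes kept by filterByExpr at a minimum count of 10 and a minimum total of 15. TMM scaled the libraries, and a single model of all 12, without a replicate block, gave every comparison. Benjamini-Hochberg adjustment ran over all 17687 tested genes in each comparison. Adjusted p-values come from that test where no other tool is named, and a gene was called under 0.05. Each SE is approximate: the size of the log2 fold change over the root of its F statistic. The procedure was tested on simulated data. Alternatives were DESeq2 1.42.0, other scalings, other filters on low counts, models of 2 groups, a replicate block, a fold change minimum and leaving out each library. Summing both entries of Ogn, and another pair of Vcan transcripts, were alternatives chosen after seeing the data. Share tests and plots used Python 3.11.15, scipy 1.17.1 and matplotlib 3.10.9. Replicates of a group differed by 16.1 to 126 in chi-square per degree of freedom, so each library was counted as its own sample. The median log2 fold change of all genes lay between -0.01 and 0.01 in every comparison.

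The 9 genes and the lists were chosen with earlier results of these data known. From each list the text names up to 4 genes with the smallest p among those called against control, and for each tested proteoglycan gene the 3 genes with the smallest root-mean-square difference, except for Ogn, whose counts are uncertain.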

Additional observations from a re-analysis of the deposited data

Results flagged for a closer look

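Some changes against control differed between days, by edgeR's quasi-likelihood test of the days against each other. These are the same between-day contrasts as given above. For Bgn the change against control at day 14 less that at day 7 was -2.05 on the log2 scale (adjusted p = 0.000499) and the difference between day 28 and day 7 was -1.78 (adjusted p = 0.00118). For Vcan these differences were -2.22 (adjusted p = 0.0183) and -2.62 (adjusted p = 0.00926). Lum had differences of -0.95 (adjusted p = 0.00617) and -0.89 (adjusted p = 0.00857). Prelp differed between day 28 and day 7 by -0.70 (adjusted p = 0.0337), and its difference between day 14 and day 7 was not called. In each of these 7 contrasts all 3 later libraries were below all 3 day-7 libraries. They were picked as called on the same values, so this separation adds no support. Groups did not overlap, in either direction, in 35.0% of all genes at day 14 against day 7 and 35.8% at day 28 against day 7. Groups of 3 are too small for the test of single outlying libraries, so none was made.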

How the results depend on the processing

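The rise of Bgn and Vcan at day 7, the fall of Lum at day 28 and the lower Bgn and Lum at days 14 and 28 than at day 7 were called under all 13 alternatives tried for each. The same held for Vcan at day 28 against day 7. These 13 do not include the fold change minimum, which the Lum changes of -0.97, -0.95 and -0.89 did not reach. At day 7 the count of called proteoglycan genes was 4, not 2, with no filter on low counts, with the day-7 and control libraries alone and with DESeq2. Requiring a log2 change of 1 or more in size left 0 of them at day 28 against control and 2 at day 28 against day 7. DESeq2 called 1 at day 28 against day 14. Leaving out 1 library gave 0 to 1 at day 14 and 1 to 3 at day 28 against control. Some list genes were also called against control in alternatives alone, such as Col18a1, higher at day 14 without day-14 replicate 1 (adjusted p = 0.0286). Fits of 2 groups alone called Spock2 lower at day 14 (0.044) and Tll1 higher at day 28 (0.0473). The cause of these shifts was not tested. Depth limits Acan, Aspn and Ogn, with at most 32, 14 and 229 counts in a library.

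Over all genes, the fold change minimum gave 2346 called at day 7 and 1835 at day 28 against control, and 1470, 472 and 1591 at day 14 against day 7, day 28 against day 14 and day 28 against day 7. A mean of at least 5 CPM gave 251 at day 14 against control, and DESeq2 gave 1360 there and 1647 at day 28 against day 14. Fits of 2 groups alone gave 2195 at day 14 against day 7 and 42 at day 28 against day 14. Leaving out 1 library gave 3061 to 4888 at day 7, 16 to 504 at day 14 and 1971 to 3283 at day 28 against control. Between days it gave 1959 to 3431 at day 14 against day 7, 261 to 1120 at day 28 against day 14 and 1954 to 3275 at day 28 against day 7.

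A replicate block changed no call of a proteoglycan gene and gave 4788, 460 and 3440 genes called at days 7, 14 and 28 against control, but replicate numbers did not pair the libraries: deviations of same-numbered libraries correlated at -0.02 to 0.15 over the 6 comparisons. With the replicate block, the log2 change of Dcn at day 28 against day 14 was -0.015, against 0.027 without it, and that of Ogn at day 28 against control was -0.21, against 0.05. Scaling by total counts alone turned Fmod at day 28 against day 7 to 0.11 and Csgalnact1 at day 28 against control to 0.017. None of these 4 was called. The other pair of Vcan transcripts gave a GAG-alpha share of 22.1% at day 7 and 16.4% in controls.

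Other changes of sign came from leaving out 1 library, in log2 changes that were not called. Between days these ranged over -0.0004 to 0.74 for Dcn, -1.11 to 0.16 for Ogn and -0.14 to 0.25 for Fmod at day 14 against day 7. At day 28 against day 14 they were -0.22 to 0.29 for Dcn, -0.16 to 0.17 for Lum, -0.026 to 0.49 for Bgn, -0.30 to 0.18 for Fmod and -0.81 to 0.16 for Vcan, and for Fmod at day 28 against day 7 -0.26 to 0.19. Against control, Lum at day 7 was at -0.20 to 0.073, and at day 28 Ogn was at -1.75 to 0.96 and Prelp at -0.30 to 0.097. Among the list genes at day 14 against control, Chsy1 was at -0.042 to 0.21, Chpf2 at -0.16 to 0.028, Htra1 at -0.23 to 0.035, Hspg2 at -0.13 to 0.10, Esm1 at -0.17 to 0.18 and Col5a2 at -0.32 to 0.11. At day 28 against control, Chsy1 was at -0.099 to 0.14, Csgalnact1 at -0.37 to 0.15, Chst2 at -0.049 to 0.25, Htra1 at -0.011 to 0.29, Hspg2 at -0.35 to 0.065, Col12a1 at -0.26 to 0.35 and Col5a2 at -0.50 to 0.083.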
